A study of Mus musculus with 4 samples.

Results

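The nuclear genes for the proteins of the mitochondrial ribosome were examined in mouse spleen, in KLHL3 knock-in (KLHL3-KI) mice and wild-type (WT) mice. Members were the genes named Mrpl or Mrps followed by a number, pseudogenes left out, which gave 78 of the 23763 genes in the deposited table. Of these, 49 carried an Mrpl name (large subunit) and 29 an Mrps name (small subunit). Names came from matching the Ensembl identifiers of the table to a mouse gene annotation.

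The 4 libraries were 2 from KLHL3-KI spleen and 2 from WT spleen, all from C57BL/6J mice at baseline. The design asks how spleen RNA differs between knock-in and wild-type mice. Total RNA was depleted of ribosomal RNA and sequenced with strand kept, so messenger RNAs of nuclear genes were read along their length. KLHL3 is the adaptor of a ubiquitin ligase that acts on WNK kinases. Which allele was knocked in, how old the mice were and of which sex is not stated in the labels. They also do not tell whether the libraries of a group came from separate animals, so p-values measure the spread between these libraries only.

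Mitochondria carry their own ribosome, which translates the few messenger RNAs of the mitochondrial genome into core subunits of the respiratory chain and the ATP synthase. Its RNAs come from the mitochondrial genome, while all of its proteins are encoded in the nucleus, made in the cytosol and imported. Some of the proteins have bacterial counterparts, and others occur only in mitochondria. In blood-forming tissue, loss of mitochondrial translation is known to impair red cell formation and the proliferation of lymphocytes.

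The recovered reads came to 9586677 and 10933023 in KLHL3-KI replicates 1 and 2, against 8535483 and 8975415 in WT replicates 1 and 2. Values are scaled read counts, that is, reads divided by 1 factor per library, and 1 read was worth 0.110 and 0.0974 in KLHL3-KI and 0.112 and 0.104 in WT. The median member rested on 187 and 228.5 reads in the KLHL3-KI libraries and on 165 and 171 reads in the WT libraries. Klhl3 itself was measured at 2.53 and 1.36 in KLHL3-KI and 3.02 and 4.67 in WT (log2 fold change -0.72, SE 0.27, limma adjusted p = 0.0895), and its RNA level does not test the presence of the knock-in allele. Markers of spleen lymphocytes were present in every library: no gene of the 15 B cell and 16 T cell markers was at 0.

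The promoters of mitochondrial ribosomal protein genes are known to carry sites for the regulators of nuclear genes for mitochondria, NRF1 and the ETS factor GABP, and for YY1. Promoter windows were taken from RefSeq (GRCm38.p6) as 250 bases before to 50 after the annotated start. A window was present for 69 of the 78 members, and each motif was searched on both strands. A gene counted if any of its windows held the motif, whatever the number of its windows. The ETS/GABP letters CCGGAAG stood in 26 of the 69 members (37.7%), against 18.6% of 11130 other tested genes and 9.93% of all 27025 genes with a window. The YY1 letters AAGATGGC stood in 12 members (17.4%), against 4.77% of other tested genes and 3.19% of all genes with a window. The NRF1 letters GCATGCGC stood in 8 members (11.6%), against 5.43% and 3.05%. The Sp1 letters GGGCGG were found in 34 members (49.3%), below the 64.7% of other tested genes and above the 38.2% of all genes with a window. The E-box CACGTG was found in 5 members (7.25%), against 11.3% and 8.09%, and the CCAAT box in 27 (39.1%), against 42.6% and 41.1%. CACGTG reads the same on both strands, matches of different motifs may overlap and each was counted for itself. A match is a match of letters, not a measured site.

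The stretches that follow come from the windows of genes that were higher in KLHL3-KI spleen by the test described further on. Each is shown because it holds the ETS/GABP letters, the motif found in the most members among the 3 regulators just named. They are printed 5′ to 3′ in the direction of the gene, upstream of its start, with the motif in capitals. CTTCCGG is the same motif on the other strand, and the second capital run of Mrpl22 is the NRF1 motif on the other strand.
Mrpl51, chr6:125192090-125192136, + strand: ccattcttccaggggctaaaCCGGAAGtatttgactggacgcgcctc
Mrpl22, chr11:58171591-58171658, + strand: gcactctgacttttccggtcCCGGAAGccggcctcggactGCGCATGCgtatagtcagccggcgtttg
Mrpl34, chr8:71464869-71464915, + strand: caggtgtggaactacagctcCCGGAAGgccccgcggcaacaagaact
Mrpl53, chr6:83109029-83109107, + strand: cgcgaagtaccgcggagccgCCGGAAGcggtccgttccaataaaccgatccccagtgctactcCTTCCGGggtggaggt
Mrpl18, chr17:12916305-12916341, - strand: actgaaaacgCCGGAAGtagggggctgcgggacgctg
Mrps22, chr9:98601680-98601710, - strand: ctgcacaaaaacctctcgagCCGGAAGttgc
Mrps18c, chr5:100798583-100798629, + strand: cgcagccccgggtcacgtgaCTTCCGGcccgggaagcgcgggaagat
These 7 were all of the genes with the ETS/GABP letters among the 12 genes that rose and had a window (58.3%). Members that did not pass the test also held the ETS/GABP letters, among them Mrps26, Mrpl3, Mrpl27, Mrpl52 and Mrps18a, and are not printed. Whether the motif differs between risen and other members was not tested. The next 3 stretches, from members that did not pass, show the other motifs. The first has the NRF1 letters, and the others have the YY1 letters on the other strand (GCCATCTT). No window of the 12 genes that rose held the YY1 letters.
Mrpl10, chr11:97041428-97041475, + strand: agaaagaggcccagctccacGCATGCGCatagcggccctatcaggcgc
Mrps12, chr7:28741993-28742040, - strand: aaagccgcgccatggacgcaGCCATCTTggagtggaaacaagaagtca
Mrps11, chr7:78783004-78783051, + strand: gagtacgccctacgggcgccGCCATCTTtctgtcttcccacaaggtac

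Most mitochondrial ribosomal protein genes were slightly higher in KLHL3-KI than in WT spleen. The log2 fold change (KLHL3-KI minus WT, on the scale log2 of the value plus 1) was above 0 for 71 of the 78 genes (91.0%), against 48.7% of the 16970 genes tested. The median over the 78 genes was 0.29, with quartiles of 0.15 and 0.39 and a range from -0.23 to 0.78, while the median over all tested genes was -0.01. Both KLHL3-KI values lay above both WT values for 58 members (74.4%), against 32.8% of all tested genes. Both lay below for 1 member, Mrpl23, where the share over all tested genes was 31.9%. The groups overlapped for the other 19.

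Past the test, 14 members rose and 0 fell (limma with a mean-variance trend, Benjamini-Hochberg adjusted p under 0.05, two-sided, adjusted over all tested genes). That was 17.9% of the members, close to the 15.2% of all tested genes that rose, while 7.56% of all tested genes fell. At an unadjusted p under 0.05, 31 members were higher and 0 lower, where 20.9% of all tested genes were higher and 14.5% lower. With edgeR on the recovered reads 13 rose and 0 fell (background 14.9% and 7.98%), and with DESeq2 5 rose and 0 fell (background 12.7% and 4.89%). The count depended on single libraries. With 1 library left out, 1 group has a single library, which is assumed to vary like the other group, and the fit has fewer degrees of freedom. The count was 3 of 78 without WT replicate 2 (background 8.17%), 4 without WT replicate 1 (10.1%), 6 without KLHL3-KI replicate 2 (11.5%) and 21 without KLHL3-KI replicate 1 (17.1%). It was 7 without the variance trend (10.6%) and 26 at an adjusted p of 0.1 (18.7%). With haemoglobin, immunoglobulin and mitochondrially encoded genes removed it was 9 (12.4%).

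**Figure D1:**
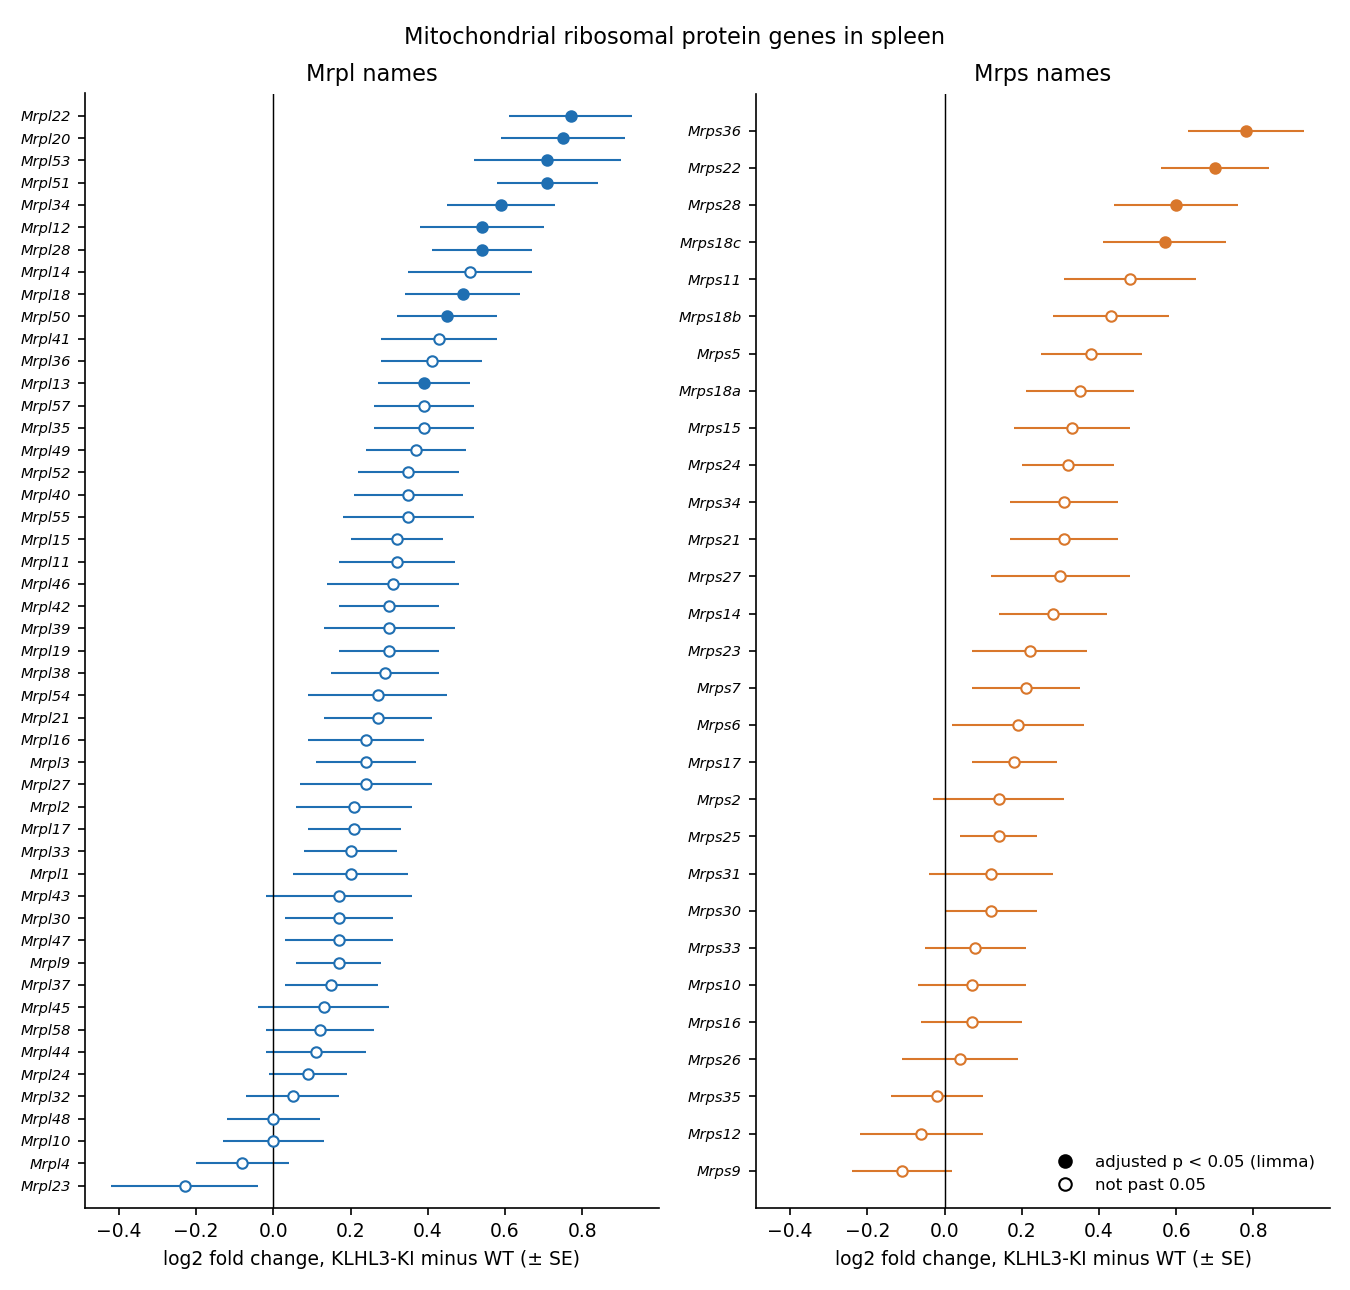
Log2 fold change of each of the 78 mitochondrial ribosomal protein genes, KLHL3-KI minus WT, with Mrpl names on the left and Mrps names on the right; points are estimates from 2 libraries per group, bars are ± 1 standard error and filled points passed a limma adjusted p of 0.05. In all, 71 points lie above 0, 14 of them are filled, and no filled point lies below 0.

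The size of the shift depended on how libraries were scaled. With total reads made equal in every library, the median of all tested genes moved to -0.16 and that of the members to 0.12, so the members stayed above all genes by a like amount while both moved down. On that scale 57 of 78 members had a log2 fold change above 0 (background 33.7%), 35 had both KLHL3-KI values above both WT values (background 21.6%) and 8 had both below (background 48.0%). On that scale 5 members rose and 0 fell (background 11.3% and 18.4%). The 5 were Mrpl51, Mrps36, Mrps22, Mrpl22 and Mrpl20, with adjusted p between 0.0119 and 0.0234, and the same 5 passed with DESeq2.

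**Figure D2:**
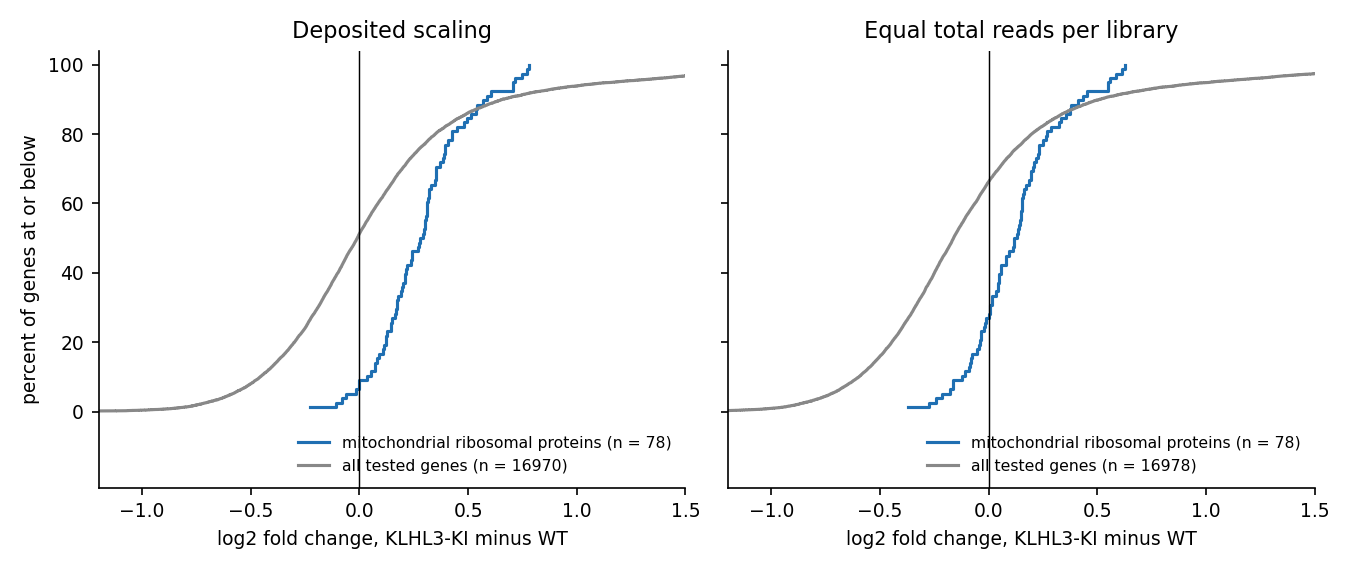
Percent of genes at or below each log2 fold change (KLHL3-KI minus WT, x axis cut at -1.2 and 1.5) for the 78 mitochondrial ribosomal protein genes (blue) and all tested genes (grey), with the deposited scaling on the left and equal total reads on the right. The blue curve crosses 50% at 0.29 on the left and 0.12 on the right, and the grey curve at -0.01 and -0.16.

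Summed over the 78 genes, the scaled count was 1707 and 1865 in KLHL3-KI and 1492 and 1443 in WT, 1.22 times as high. As a share of all summed values, a measure that the scaling does not touch, the members took 0.162% and 0.175% in KLHL3-KI and 0.156% and 0.155% in WT. The means were 0.168% ± 0.00956 and 0.156% ± 0.000996 (SD, n = 2 libraries each), and both KLHL3-KI libraries lay above both WT libraries. The exact two-sided permutation p was 0.333, which is the smallest that 2 against 2 libraries allow. In bulk spleen RNA, more or fewer cells of a type and more or less RNA per cell cannot be told apart.

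By name, 10 of 49 Mrpl genes rose (20.4%), with a median log2 fold change of 0.30. Of the Mrps genes, 4 of 29 rose (13.8%), with a median of 0.22. Both shares were near the 15.2% of all tested genes that rose, and the difference between them was not tested. With equal total reads the medians were 0.14 and 0.06. Names and subunits are not the same for all: Mrps30, Mrps18a and Mrps36, described further on, stand with the Mrps genes here. The summed count of the Mrpl genes per unit of the Mrps genes was 1.76 and 1.83 in KLHL3-KI and 1.73 and 1.71 in WT. These ratios did not overlap between groups (exact permutation p = 0.333, the smallest possible). The genes were also grouped by number. The first group had a number also used for bacterial ribosomal proteins, together with Mrpl47 and Mrps24, whose bacterial counterparts have other numbers. The second group held all other numbers. Of the first group 8 of 46 rose (17.4%, median 0.26), and of the second 6 of 32 (18.8%, median 0.30), against 15.2% of all tested genes. The difference between these groups was not tested.

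Among large subunit genes with a shared number, Mrpl22, whose product corresponds to the bacterial protein that lines the exit tunnel, had 14.1 and 15.7 in KLHL3-KI against 7.83 and 8.82 in WT. The log2 fold change was 0.77 (SE 0.16, adjusted p = 0.00663), and both KLHL3-KI values were well clear of both WT values. A near-identical gene model, Gm6997, held at most 0.727 in any library, and the sum of the pair was 14.3 and 15.9 in KLHL3-KI against 8.06 and 9.55 in WT. Mrpl20, the counterpart of a bacterial protein that binds the large ribosomal RNA early in assembly, had 27.9 and 37.2 in KLHL3-KI against 20.7 and 17.0 in WT (0.75, SE 0.16, adjusted p = 0.00951). The KLHL3-KI libraries differed from each other by more than the WT libraries, without overlap. Mrpl28 had 26.0 and 28.2 in KLHL3-KI against 17.3 and 19.3 in WT (0.54, SE 0.13, adjusted p = 0.0141). Mrpl34 had 16.7 and 17.3 in KLHL3-KI against 10.3 and 11.7 in WT (0.59, SE 0.14, adjusted p = 0.0170). Both carry bacterial numbers, L28 and L34, and their replicates lay close together in each group.

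Mrpl12 encodes the stalk protein that recruits translation factors to the ribosome. Its value was 29.5 and 41.4 in KLHL3-KI against 23.9 and 23.7 in WT (0.54, SE 0.16, adjusted p = 0.0364), so the 2 KLHL3-KI libraries were far apart and the 2 WT libraries almost equal. Mrpl10, which anchors that stalk, had 23.5 and 26.6 in KLHL3-KI and 23.4 and 26.7 in WT, and its log2 fold change of -0.00 (SE 0.13) was the smallest of all members. Mrpl18, the counterpart of a bacterial protein that binds 5S ribosomal RNA, and Mrpl13 also rose (0.49 and 0.39, adjusted p = 0.0410 and 0.0456). In the annotation Mrpl18 shares exon bases with Tcp1 and Mrpl13 with Mtbp, in both cases on the opposite strand. The libraries keep the strand, but whether the authors' counting used it is not stated, so both values are uncertain to that extent. Just outside the threshold, Mrpl14, Mrpl36 and Mrpl35 had adjusted p of 0.0503, 0.0509 and 0.0512, with log2 fold changes of 0.51, 0.41 and 0.39.

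Among large subunit genes outside the shared numbers, Mrpl51 had the lowest p of all members. It had 36.9 and 41.5 in KLHL3-KI against 25.7 and 21.4 in WT (0.71, SE 0.13, adjusted p = 0.00412). Mrpl53 had 10.2 and 14.4 in KLHL3-KI against 7.16 and 6.95 in WT (0.71, SE 0.19, adjusted p = 0.0242). It shares exon bases with the gene model Gm42688 on the same strand. Reads of shared bases cannot be assigned by strand, so its value is uncertain to that extent. Mrpl50 had 23.9 and 27.4 in KLHL3-KI against 19.1 and 17.9 in WT (0.45, SE 0.13, adjusted p = 0.0357). All 3 encode proteins classed as particular to mitochondria. In the same class, Mrpl48 had 30.9 and 28.7 in KLHL3-KI and 29.0 and 30.7 in WT, where the groups overlapped (-0.00, SE 0.12). Mrpl58, the peptidyl-tRNA hydrolase built into the large subunit, had 15.4 and 17.3 in KLHL3-KI against 15.0 and 15.0 in WT and did not pass (0.12, SE 0.14, adjusted p = 0.592).

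Among small subunit names, Mrps22 had 18.5 in both KLHL3-KI libraries against 10.6 and 11.3 in WT (0.70, SE 0.14, adjusted p = 0.00578). Mutations of the human gene cause a mitochondrial disease with combined respiratory chain deficiency. Mrps28 had 12.7 and 14.4 in KLHL3-KI against 8.28 and 8.82 in WT (0.60, SE 0.16, adjusted p = 0.0209). Mrps26 and Mrps35 stood at the other end: Mrps35 had 21.7 and 22.3 in KLHL3-KI and 21.8 and 22.7 in WT (-0.02, SE 0.12). Mrps26 had 15.0 and 19.4 in KLHL3-KI and 16.1 and 17.1 in WT (0.04, SE 0.15), and in both genes the groups overlapped.

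Mrps36 had the largest log2 fold change of the 78 genes. It had 14.9 and 16.9 in KLHL3-KI against 8.73 and 8.93 in WT (0.78, SE 0.15, adjusted p = 0.00531), and it was the only member past the threshold in all 17 alternatives that kept an adjusted p of 0.05. Despite its name, its product is known as a subunit of the 2-oxoglutarate dehydrogenase complex of the citric acid cycle rather than of the ribosome. Mrps30 and Mrps18a also carry small subunit names but encode large subunit proteins. Mrps30 had 29.8 and 26.7 in KLHL3-KI against 25.6 and 26.1 in WT and did not pass (0.12, SE 0.12, adjusted p = 0.503).

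Mrps18a, Mrps18b and Mrps18c are 3 paralogs related to one bacterial protein, S18. Mrps18c had 15.3 and 19.4 in KLHL3-KI against 12.1 and 10.6 in WT and rose (0.57, SE 0.16, adjusted p = 0.0329). It shares exon bases with the gene model Gm43511 on the same strand, so its value is uncertain in the way given for Mrpl53. Mrps18b had 18.6 and 23.9 in KLHL3-KI against 15.2 and 15.7 in WT (0.43, SE 0.15, adjusted p = 0.0725). Mrps18a had 22.2 and 21.2 in KLHL3-KI against 15.1 and 18.7 in WT (0.35, SE 0.14, adjusted p = 0.111). In all 3 both KLHL3-KI values lay above both WT values, as in 32.8% of all tested genes, and 1 of the 3 passed. With equal total reads the groups overlapped for Mrps18a. Whether the paralogs differ from one another was not tested.

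**Figure D3:**
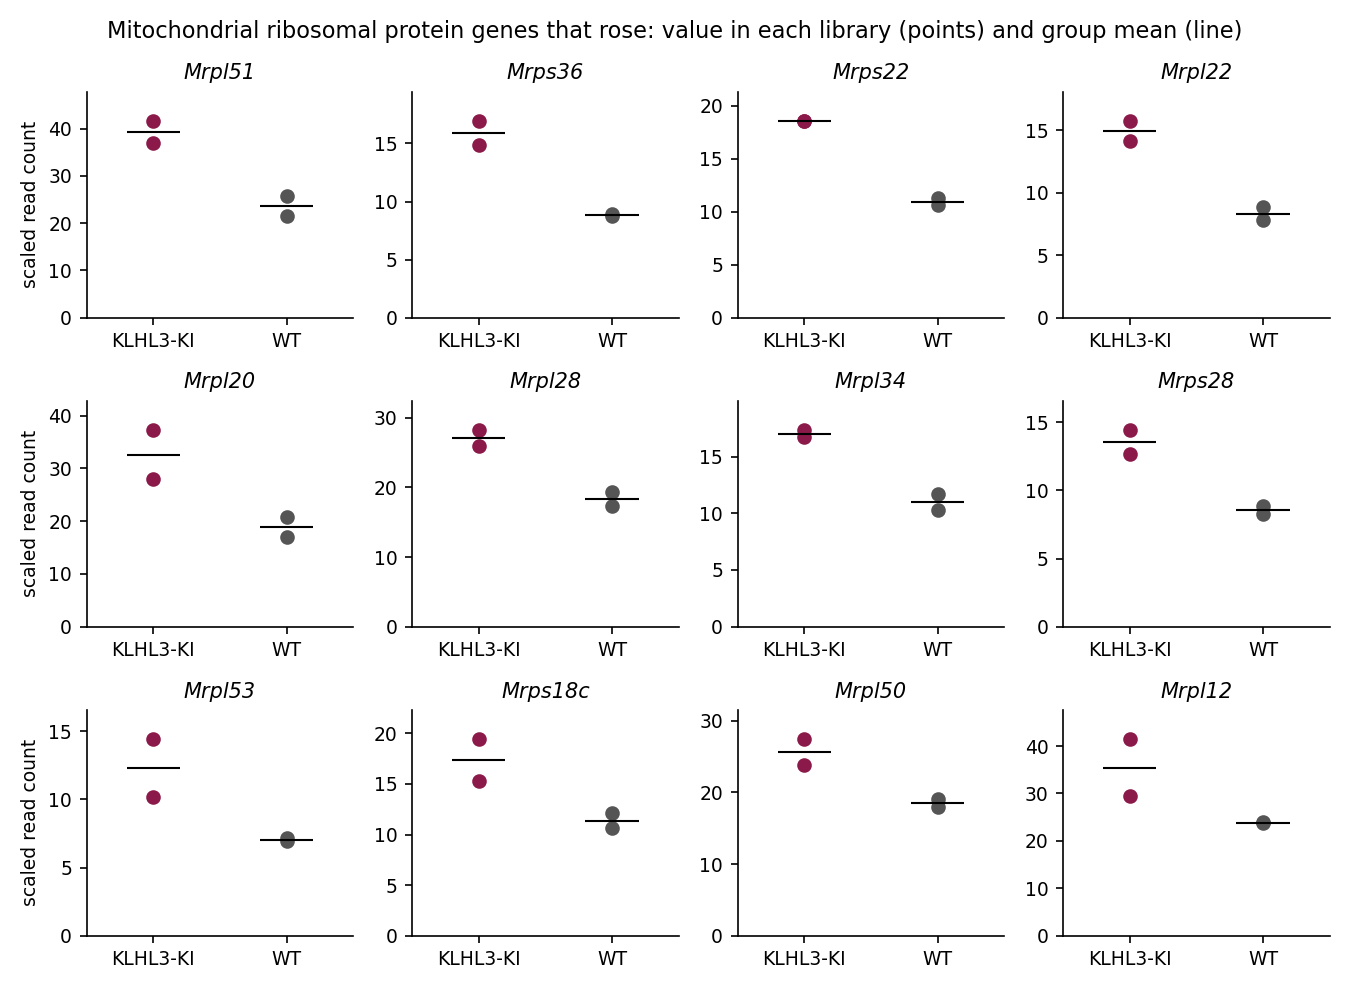
Scaled read count in each library (points) and group mean (line), KLHL3-KI left of WT, for the 12 mitochondrial ribosomal protein genes with the lowest p among those that rose; each vertical axis starts at 0. In all 12 panels both KLHL3-KI points lie above both WT points, which the choice of these genes required.

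The 4 members with the highest mean count over the 4 libraries did not pass the test. Mrpl24 had 46.7 and 47.1 in KLHL3-KI against 43.5 and 44.6 in WT (0.09, SE 0.10), and Mrps25 had 43.6 and 44.2 in KLHL3-KI against 38.7 and 40.6 in WT (0.14, SE 0.10). Both had a log2 fold change below 0 with equal total reads (-0.08 and -0.02). Mrpl15 had 34.3 and 40.5 in KLHL3-KI against 30.0 and 29.3 in WT (0.32, SE 0.12, adjusted p = 0.0898). Mrpl30 had 32.8 and 41.5 in KLHL3-KI and 34.7 and 31.0 in WT, where the groups overlapped (0.17, SE 0.14), and its near-identical gene model Gm6238 held at most 0.551.

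Per kilobase of 1 annotated transcript per gene, the level differed widely between members. Mrpl33 was highest, with a mean of 66.6 scaled reads per kilobase in KLHL3-KI and 57.9 in WT, followed by Mrpl52 (55.1 and 42.8) and Mrps21 (50.4 and 40.4). Mrpl17 was lowest in WT, at 4.18 in KLHL3-KI and 3.59 in WT, next to Mrps26 at 4.02 and 3.88. The order depends on the transcript taken, since the transcript of Mrpl17 has 7300 annotated bases and that of Mrpl33 has 478, and the isoforms used in spleen were not measured here.

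Mrpl23 was the member with the lowest log2 fold change. It had 6.06 and 4.67 in KLHL3-KI against 6.49 and 6.33 in WT (-0.23, SE 0.19, adjusted p = 0.429). The pseudogene Mrpl23-ps1, which is near-identical to it, held more reads than the gene itself, at 16.6 and 16.3 in KLHL3-KI and 15.0 and 11.9 in WT. The sum of gene and pseudogene was 22.7 and 20.9 in KLHL3-KI and 21.5 and 18.3 in WT, where the groups overlapped, so the value of Mrpl23 is uncertain. In all, 27 members share at least 50 exon bases with another gene in the annotation and 3 have a near-identical gene (30 members with either). Among the other 48, 9 rose (18.8%, against 15.2% of all tested genes) and 0 fell, and the median was 0.30.

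The 78 genes lie on 17 chromosomes, and 1 pair of members are direct neighbours, Mrpl46 and Mrps11, arranged head to head. Mrpl46 had 11.2 and 14.9 in KLHL3-KI against 9.85 and 10.7 in WT (0.31, adjusted p = 0.232). Mrps11 had 11.0 and 14.1 in KLHL3-KI against 8.73 and 8.61 in WT (0.48, adjusted p = 0.0713). Neither passed, and both were higher in both KLHL3-KI libraries, as were 32.8% of all tested genes. With equal total reads the groups overlapped for Mrpl46. The genes of this pair share exon bases on opposite strands, so their values are uncertain in the way given for Mrpl18 and Mrpl13.

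Of 5 genes for further proteins of the mitochondrial ribosome, which carry other names, 3 rose and 0 fell, with a median of 0.39. Gadd45gip1, a large subunit protein, had 26.3 and 28.6 in KLHL3-KI against 19.9 and 18.5 in WT (0.50, adjusted p = 0.0190). Dap3, the GTP-binding protein of the small subunit, had 45.6 and 46.9 in KLHL3-KI against 36.7 and 33.8 in WT (0.38, adjusted p = 0.0302). Aurkaip1, also of the small subunit, had 34.7 and 36.9 in KLHL3-KI against 26.4 and 27.3 in WT (0.40, adjusted p = 0.0303). With equal total reads 0 of the 5 passed.

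Of 26 genes for assembly factors, 3 rose (11.5%, below the 15.2% of all tested genes) and 0 fell, with a median of 0.20. The lowest p among them was that of Eral1, a GTPase that acts as a chaperone of the small subunit ribosomal RNA, at 39.9 and 36.1 in KLHL3-KI against 17.0 and 17.3 in WT (1.10, SE 0.12, adjusted p = 0.000172). The highest log2 fold change among the 78 members was 0.78, and the difference was not tested; Eral1 passed in all 17 of those alternatives. Mrm1 and Mrm3, which methylate the large subunit ribosomal RNA, also rose. Mrm1 had 20.8 and 21.3 in KLHL3-KI against 14.2 and 11.9 in WT (0.65, adjusted p = 0.00951), and Mrm3 had 6.83 and 5.94 in KLHL3-KI against 4.14 and 3.53 in WT (0.61, adjusted p = 0.0480).

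Translation factors came to 1 risen (6.67%) and 0 fallen of 15 (median 0.06). Genes for the copying, transcription and RNA processing of the mitochondrial genome came to 2 risen (9.52%) and 0 fallen of 21 (median -0.01). Both shares were below the 15.2% of all tested genes that rose. The elongation factor Gfm1 had 39.2 and 45.3 in KLHL3-KI against 31.2 and 28.3 in WT (0.49, adjusted p = 0.0175). Lrpprc, which stabilises mitochondrial messenger RNAs, had 91.1 and 109 in KLHL3-KI against 70.1 and 82.1 in WT (0.39, adjusted p = 0.0457). Tbrg4, a regulator of mitochondrial messenger RNAs, had 32.3 and 38.9 in KLHL3-KI against 26.2 and 26.6 in WT (0.41, adjusted p = 0.0433). Over these 4 lists, 9 of 67 genes rose and 0 fell (13.4%, near the background of 15.2%), with a median of 0.11. With equal total reads 2 rose and 4 fell, where 11.3% of all tested genes rose and 18.4% fell.

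Of 20 genes of mitochondrial import, chaperones and outer membrane channels, 13 rose and 0 fell, with a median of 0.48, and 8 rose with equal total reads. Vdac1, an outer membrane channel, had 106 and 117 in KLHL3-KI against 60.7 and 70.3 in WT (0.76, adjusted p = 0.000969). Hspd1, the chaperonin of the matrix, had 270 and 309 in KLHL3-KI against 184 and 142 in WT (0.84, adjusted p = 0.00153), and the channel gene Vdac3 also rose (0.60, adjusted p = 0.00324). Per 100 of the summed counts of these 20 genes, the members summed to 101 and 96.5 in KLHL3-KI and 112 and 119 in WT, a ratio of 0.856 (exact permutation p = 0.333, the smallest possible). Set against the proteins of the cytosolic ribosome, the members had, per 100 of the summed counts, 4.01 and 4.62 in KLHL3-KI and 3.66 and 3.88 in WT (exact permutation p = 0.333). Of 80 cytosolic ribosomal protein genes tested 6 rose and 0 fell, with a median of 0.07; with equal total reads 1 rose and 3 fell, and the median was -0.10.

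Of 14 tested nuclear regulators of mitochondrial genes, 4 rose (28.6%) and 1 fell (median 0.16), where 15.2% of all tested genes rose and 7.56% fell. With equal total reads 1 rose and 1 fell (background 11.3% and 18.4%), and the median was -0.00. On that scale Nrf1, Hcfc1 and Myc no longer passed (adjusted p = 0.101, 0.0681 and 0.0988). Nrf1, the factor whose motif was searched above, had 75.8 and 81.2 in KLHL3-KI against 58.0 and 60.7 in WT (0.40, adjusted p = 0.0174). The transcriptional co-regulator Hcfc1 rose by 0.48 (adjusted p = 0.0148). Mycn had 4.41 and 3.12 in KLHL3-KI against 1.34 and 1.45 in WT (0.98, adjusted p = 0.0152). Its values were low, and those in WT were close to the minimum mean of 1 required for testing. The remaining 2 calls are named after their values were seen. Myc had 51.3 and 65.2 in KLHL3-KI against 35.4 and 44.6 in WT (0.53, adjusted p = 0.0298), and the nuclear receptor Esrra had 27.0 and 22.1 in KLHL3-KI against 33.5 and 42.1 in WT (-0.60, adjusted p = 0.0175). Gabpa, a subunit of the ETS factor, had 76.5 and 78.2 in KLHL3-KI against 67.9 and 68.1 in WT and did not pass (0.18, adjusted p = 0.193); Yy1 did not pass either (0.14, adjusted p = 0.382).

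**Figure D4:**
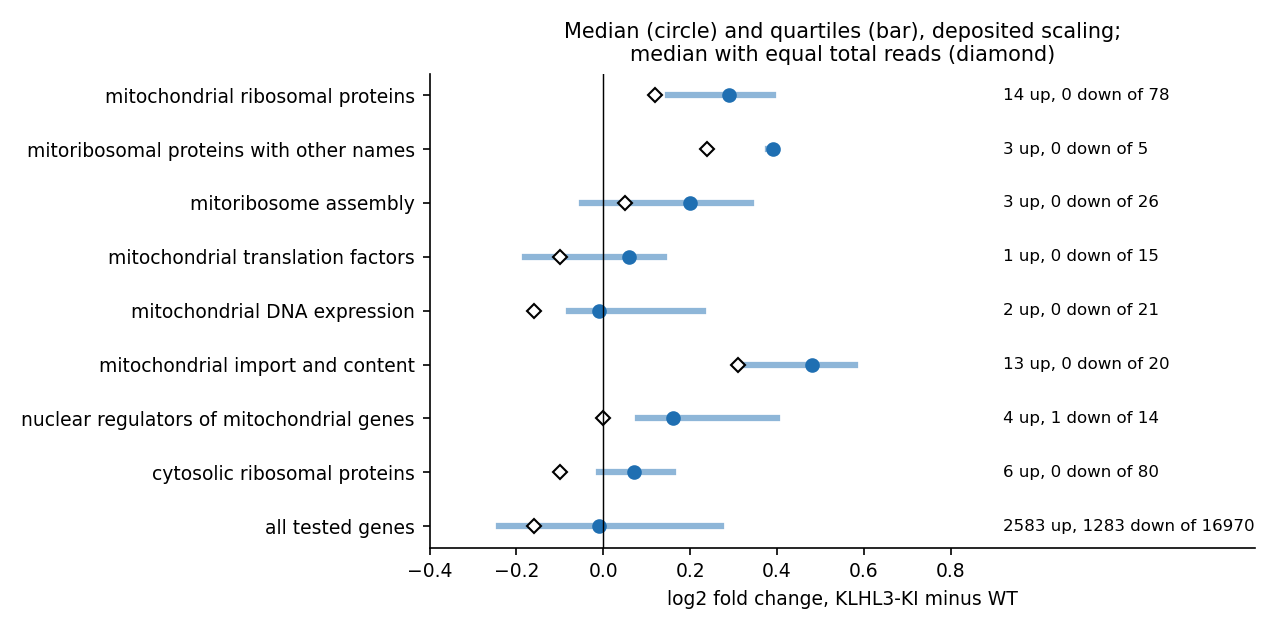
Median (circle) and quartiles (bar) of the log2 fold change, KLHL3-KI minus WT, for the mitochondrial ribosomal protein genes, the related gene lists and all tested genes with the deposited scaling, and the median with equal total reads (diamond); the text at the right counts genes past a limma adjusted p of 0.05. The circle of the mitochondrial ribosomal proteins is at 0.29, that of import and content at 0.48, that of cytosolic ribosomal proteins at 0.07 and that of all genes at -0.01.

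Markers of several cell types moved with the groups. All 19 erythroid markers tested rose, and their summed counts were 42988 and 43809 in KLHL3-KI and 22303 and 19325 in WT. All 20 cell division markers rose (sums 5185 and 6224 in KLHL3-KI, 1359 and 1187 in WT), as did all 15 neutrophil markers (1616 and 2181 in KLHL3-KI, 213.0 and 122.6 in WT) and all 13 megakaryocyte markers (612.1 and 807.6 in KLHL3-KI, 293.1 and 285.6 in WT). All 16 T cell markers fell (479.2 and 437.4 in KLHL3-KI, 840.5 and 745.5 in WT), and 13 of 15 B cell markers fell, although their sums overlapped (15844 and 13585 in KLHL3-KI, 14175 and 15756 in WT). Most of these sums came from 1 gene, Ighm (12431 and 10937 in KLHL3-KI, 9633 and 11007 in WT). Without it, a choice made after seeing the values, the sums were 3413 and 2648 in KLHL3-KI and 4542 and 4749 in WT. Of 14 macrophage and monocyte markers, 5 rose (35.7%, against 15.2% of all tested genes) and 1 fell. Their sums were 5020 and 5219 in KLHL3-KI and 4599 and 4134 in WT. No gene of these lists was at 0 in any library. The part of these cell types and of cell division in the values of the mitochondrial ribosomal protein genes was not tested.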

How the data were processed

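RNA of 4 spleen libraries was analysed, with groups and replicate numbers from the sample titles. Per the submitters' processing notes, Trimmomatic 0.38, Bowtie2, RSEM 1.3.0 and edgeR were used with build GRCm39; their roles are not stated, nor is the annotation. The authors deposited a normalized signal per gene and library; every value (100%) was a whole multiple of 1 read within 0.001 reads, so whole reads were recovered. Gene names (23605 of 23763, 99.3%) came from GENCODE on GRCm38, as did transcript lengths and overlaps, so no coordinates are given except those of RefSeq promoter windows.

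Genes with a mean of at least 1 (16970, all 78 members among them) were compared on log2(value + 1) with limma 3.58.1 in R 4.3.3 (trend in variance with mean), two-sided, with p adjusted by Benjamini-Hochberg and a threshold of 0.05; fold changes on this scale understate those of low genes. The deposited unit was not raw counts, so edgeR 4.0.16 and DESeq2 1.42.0 on the recovered reads were alternatives. The limma step was tested on simulated data of 16959 genes made for this comparison. Of 50 genes at each change, it called 50 at a log2 change of -2, 48 at -1, 49 at 1 and 50 at 2. It also called 11 of 16759 unchanged genes. The changed genes were drawn from genes above a minimum read count, and every gene was given the same variability. These changes were larger than that of any member (at most 0.78). The simulation therefore does not show how often changes of the members' size are called. The text names the 12 risen members with the lowest p among those with both KLHL3-KI values above both WT values. The 4 members with the smallest change and the 4 with the highest mean are named too. So are Mrps18a to Mrps18c, Mrps30, Mrps36 and up to 3 called genes of each other list. Any further gene was named with its values in view. Members and lists were chosen with earlier results of these data known, so their counts are descriptions. Intervals beyond replicate spread were not computed; depth and 2 libraries per group limit precision.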

Additional observations from a re-analysis of the deposited data

How the results depend on the processing

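No member fell under any alternative. The direction of the median held in all of them, and its size and the counts did not. With equal total reads, after quantile normalization, and with haemoglobin, immunoglobulin and mitochondrially encoded genes removed, the median log2 fold change of the 78 genes was 0.12, 0.17 and 0.15, and 5, 9 and 9 rose (1912, 2041 and 2087 of all genes). In the same order, the other genes of mitochondrial gene expression came to 2, 3 and 4 risen and 4, 2 and 4 fallen of 67, and 3126, 2369 and 2971 of all genes fell. DESeq2 gave 5 risen members, 3 risen other mitochondrial genes and 781 fallen of all genes, and leaving out the variance trend gave 7, 3 and 659. An adjusted p of 0.1 gave 26 risen members and 1991 fallen genes. Leaving out 1 library at a time gave medians of 0.21 to 0.33, 3 to 21 risen members, 1 to 12 risen other mitochondrial genes, and 1386 to 2903 risen and 267 to 1627 fallen of all genes; 3, 4, 5 and 13 of the 14 calls were kept without WT replicate 2, WT replicate 1, KLHL3-KI replicate 2 and KLHL3-KI replicate 1. The cause of these moves was not tested.

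With equal total reads Mrps25, Mrps30, Mrpl24 and Mrps26 reversed to -0.02, -0.04, -0.08 and -0.12. After quantile normalization they were -0.03, -0.01, -0.07 and -0.08, and with the gene classes removed Mrps30, Mrpl24 and Mrps26 were -0.01, -0.05 and -0.10. With median-ratio rescaling Mrpl48 and Mrpl10 were 0.01 and 0.01. Without 1 library Mrps26 ran from -0.14 to 0.21, Mrps35 from -0.05 to 0.01 (0.00 in one case), Mrpl48 from -0.05 to 0.05 and Mrpl10 from -0.09 to 0.09. Of the other values of named members under the alternatives, an adjusted p of 0.1 included, 337 kept direction and side of the threshold, 52 lost the call and 4 gained one. Replicate numbers from the titles are shared between the groups, while the library names are numbered otherwise. The deviations of same-numbered libraries correlated at -0.032. With 2 libraries per group, this value cannot show whether same-numbered libraries belong together. With the replicate block 15 members rose (16.0% of all tested genes did), 13 of the 14 among them. With 48 to 484 reads per member and library and 2 libraries per group, a p above the threshold does not show that a gene was unchanged.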
